A study of Homo sapiens with 4 samples.

Results

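Proteins with an EH domain (Eps15 homology domain) of endocytosis and recycling were examined in ARP-1 and MM.1S, which are established lines of human myeloma cells. Multiple myeloma is a cancer of plasma cells. The group holds 10 genes, the recycling ATPases EHD1, EHD2, EHD3 and EHD4, the adaptors REPS1 and REPS2, the coat proteins EPS15 and EPS15L1, and the scaffolds ITSN1 and ITSN2. These genes were selected on measured differences of the same arrays: EHD3 was among the largest differences of ARP-1 and REPS2 among those of MM.1S, and the others were taken as their relatives. Of the 10 genes, 9 have a probe set named here, 1 each, among 14884 named genes, and REPS1 has none. A probe set is the group of array probes that reads 1 gene.

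RNA was measured on 4 whole-transcript arrays. Cells carried a lentiviral short hairpin RNA, a control hairpin in the group named CTR-KO and a hairpin against MIF in the group named MIF-KO, and GFP-positive cells were sorted. MIF is a secreted inflammatory cytokine. The name KO thus stands for a knockdown, and all groups share the virus and the sort. Each group had n = 2 arrays, 1 from ARP-1 and 1 from MM.1S, so that each combination of line and hairpin rests on 1 array, and the labels do not speak of separate cultures. For ARP-1, the description field of each array contradicts its title and genotype label and gives the other hairpin. Titles were followed here, and every direction in ARP-1 would turn if the descriptions were right.

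EH domains are small calcium-binding folds that recognise short motifs of asparagine, proline and phenylalanine in partner proteins. EPS15, EPS15L1 and the intersectins gather at the plasma membrane where clathrin-coated pits begin, REPS1 and REPS2 take part in the uptake of growth factor receptors, and the EHD proteins bend and cut membranes so that receptors return from endosomes to the surface. In plasma cells, as in other cells, this traffic turns over receptors of the surface.

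The measurement of MIF followed the titles, with an intensity of 1092 on CTR-KO ARP-1 and 541 on MIF-KO ARP-1, and of 1012 and 405 in MM.1S. Of the plasma cell markers, 8 of 9 named here had a mean above the filter on low values (a geometric mean intensity of 31.3 over the arrays, which tested genes had to reach), including IRF4 and XBP1, against 2 of 17 markers of other cell types. The arrays did not group by line. CTR-KO ARP-1 stood apart from its own line, with 1697 of 7442 tested genes at least 1.5-fold from MIF-KO ARP-1, while the closest pair came from different lines, with 494 genes between CTR-KO MM.1S and MIF-KO ARP-1. CTR-KO ARP-1 was in turn nearest to MIF-KO MM.1S, with 778 genes, fewer than the 937 between the MIF-KO arrays of the lines. The arrays of MM.1S were apart for 596 genes. All the arrays of ARP-1 lay at least 2-fold to the same side of all those of MM.1S for 2 of 7442 genes. Whether an array carries another sample than its label says was not tested.

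The promoters of EHD3 and REPS2 are shown because these genes had the widest differences of the group and were both higher in MIF-KO ARP-1. The 250 bases before the start of each gene are from RefSeq (build GRCh38.p14, plus strand), at chr2:31233902-31234151 for EHD3 and chrX:16946408-16946657 for REPS2. Capitals mark GC boxes (GGGCGG) and CCAAT boxes (CCAAT, or ATTGG on the other strand).
EHD3: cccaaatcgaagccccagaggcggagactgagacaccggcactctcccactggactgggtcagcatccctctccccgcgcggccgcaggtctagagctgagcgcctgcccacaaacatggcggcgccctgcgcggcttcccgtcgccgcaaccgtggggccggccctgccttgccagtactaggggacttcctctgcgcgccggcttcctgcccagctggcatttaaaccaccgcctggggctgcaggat
REPS2: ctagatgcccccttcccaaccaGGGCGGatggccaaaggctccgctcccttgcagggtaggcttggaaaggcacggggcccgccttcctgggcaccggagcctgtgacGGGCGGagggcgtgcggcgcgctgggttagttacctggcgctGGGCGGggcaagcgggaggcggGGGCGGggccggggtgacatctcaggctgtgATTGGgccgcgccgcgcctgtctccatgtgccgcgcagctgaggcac
The windows differed in these motifs. In a window of 300 bases, which adds 50 bases after the start, REPS2 held 4 GC boxes and 1 CCAAT box, and EHD3 held neither. A GC box occurred in 45.0% and a CCAAT box in 34.6% of the 35116 promoter windows in the table. The letters of a TATA box (TATAAA), an AP-1 site (TGANTCA), a cyclic AMP response element (TGACGTCA), a core of the C/EBP-ATF element (TGATGNAA) and an E-box (CACGTG), searched on both strands, had no match in either window; they occurred in 11.5%, 7.7%, 1.8%, 3.6% and 7.3% of all windows, in that order. A C/EBP-ATF core may share bases with the other motifs, and a match is a run of letters, not a binding site. G and C made up 69.3% of the EHD3 window and 73.0% of the REPS2 window, against a median of 58.7%.

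EHD3, which moves cargo between early endosomes and the recycling compartment, had the widest range of the group. Its intensity was 25.4 (CTR-KO) and 218 (MIF-KO) in ARP-1, and 57.5 (CTR-KO) and 74.3 (MIF-KO) in MM.1S. Both MIF-KO arrays lay above both CTR-KO arrays, yet the width came from ARP-1, whose arrays held the lowest and the highest value. MIF-KO was 8.55-fold higher in ARP-1 (log2 difference 3.10) and 1.29-fold higher in MM.1S (0.37). The ARP-1 difference ranked 4 from the top of 7442 tested genes and the MM.1S difference 1125. These values chose the gene and carry no test. Line order also turned with the hairpin: EHD3 was 2.26-fold higher in MM.1S than in ARP-1 under CTR-KO and 2.93-fold lower under MIF-KO.

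REPS2, an adaptor in the uptake of growth factor receptors, ran in opposite directions in the lines. Its intensity was 16.5 (CTR-KO) and 41.5 (MIF-KO) in ARP-1, and 76.2 (CTR-KO) and 24.1 (MIF-KO) in MM.1S. The CTR-KO arrays held the lowest and the highest value, with both MIF-KO arrays between them. MIF-KO was 2.51-fold higher in ARP-1 (log2 difference 1.33) and 3.16-fold lower in MM.1S (-1.66). The MM.1S difference ranked 2 from the bottom of the tested genes and the ARP-1 difference 135 from the top, and these too chose the gene. REPS2 passed the filter narrowly, with a mean log2 of 5.07 against 4.97. Its values on CTR-KO ARP-1 and MIF-KO MM.1S lie below the filter intensity of 31.3, so its place in these ranks rests on its higher arrays. Under CTR-KO the gene was 4.61-fold higher in MM.1S than in ARP-1, and under MIF-KO 1.72-fold lower. The lowest value lies close to the median of all probe sets on that array, 13.1, so the size of these differences depends on how low values are treated: with 16 added to every intensity the ARP-1 difference was 0.82 on the log2 scale, the MM.1S difference was -1.20, and the fold between the lines under CTR-KO was 2.83. The same addition gave 2.49 for EHD3 in ARP-1, where its CTR-KO value of 25.4 is also below the filter.

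**Figure D1:**
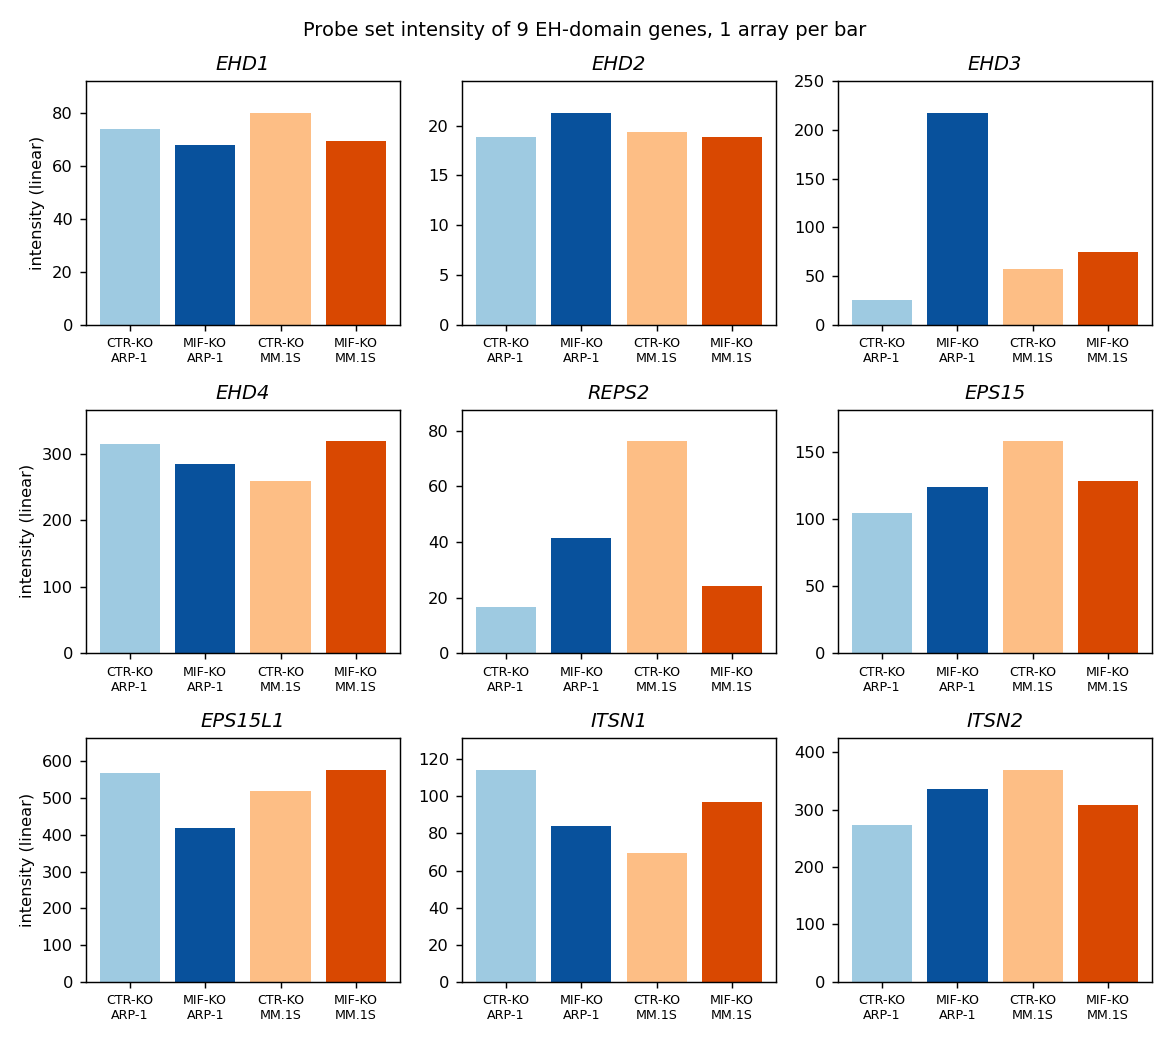
Intensity (linear scale, from 0) of the 9 EH-domain genes named on the arrays, 1 panel per gene with its own axis and 1 bar per array, without error bars because each bar is 1 array. EHD3 runs from 25.4 to 218 and REPS2 from 16.5 to 76.2, while the highest array of each other gene is at most 1.65-fold above its lowest.

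The other EHD genes had small differences. EHD1, the ATPase that returns transferrin receptors and many other cargoes to the surface, had intensities of 73.8 (CTR-KO) and 67.7 (MIF-KO) in ARP-1, and 79.9 (CTR-KO) and 69.4 (MIF-KO) in MM.1S. It was the 1 tested member with a lower value under MIF-KO in both lines, with log2 differences of -0.13 and -0.20. EHD4, which acts at early endosomes, had 314, 285, 258 and 319 on the same arrays in that order. Its MIF-KO array was the lower in ARP-1 (-0.14) and the higher in MM.1S (0.30). Set against its relatives on the same arrays, EHD3 showed an excess over EHD1 of 3.22 in ARP-1 and of 0.57 in MM.1S, on the log2 scale. Against EHD4 the excess was 3.24 in ARP-1 and 0.07 in MM.1S. These excesses rest on the EHD3 values that chose the gene.

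EHD2, which sits at the neck of caveolae, had low values throughout. Its intensity was 18.9 (CTR-KO) and 21.3 (MIF-KO) in ARP-1, and 19.4 (CTR-KO) and 18.8 (MIF-KO) in MM.1S, below the filter of 31.3, so it was left out of the fit. The 4 named caveolar genes were low as well, between 6.64 and 13.5, CAVIN1 among them at 12.1 to 13.5. The caveolar values are near or below the median of all probe sets, which was 13.1 to 13.3, and cannot be told from background, since the deposited table gives no detection call.

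The coat proteins and scaffolds came as pairs of relatives whose differences had opposite signs within each pair. Both sign patterns were common on the arrays. With the MIF hairpin, 30.1% of all tested genes rose in ARP-1 but fell in MM.1S, and 37.5% fell in ARP-1 but rose in MM.1S. The median absolute difference of all tested genes was 0.29 in ARP-1 and 0.20 in MM.1S. Whether relatives oppose each other more often than other genes was not tested. EPS15, an early clathrin coat protein that also binds ubiquitin-tagged receptors, had intensities of 105 (CTR-KO) and 124 (MIF-KO) in ARP-1, and 158 (CTR-KO) and 129 (MIF-KO) in MM.1S, a log2 difference of 0.25 in ARP-1 and -0.30 in MM.1S. Its relative EPS15L1 had 569, 419, 520.0 and 577 on the same arrays in that order, a difference of -0.44 and 0.15. EPS15 was highest on CTR-KO MM.1S and EPS15L1 was lowest on MIF-KO ARP-1. Between them, the difference of EPS15 minus that of EPS15L1 was 0.69 for ARP-1 and -0.45 for MM.1S.

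The intersectins, scaffolds that join coat proteins to dynamin and to actin regulators, showed the same opposition. ITSN1 had intensities of 114 (CTR-KO) and 84.1 (MIF-KO) in ARP-1, and 69.2 (CTR-KO) and 96.9 (MIF-KO) in MM.1S, with differences of -0.44 and 0.49. ITSN2 had 274, 335, 369.6 and 309 on the same arrays in that order, with differences of 0.29 and -0.26. ITSN1 was thus highest and ITSN2 lowest on CTR-KO ARP-1, and on CTR-KO MM.1S the order was turned. The difference of ITSN1 minus that of ITSN2 was -0.73 for ARP-1 and 0.74 for MM.1S. With 1 array per value, no error can be put on these contrasts.

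**Figure D2:**
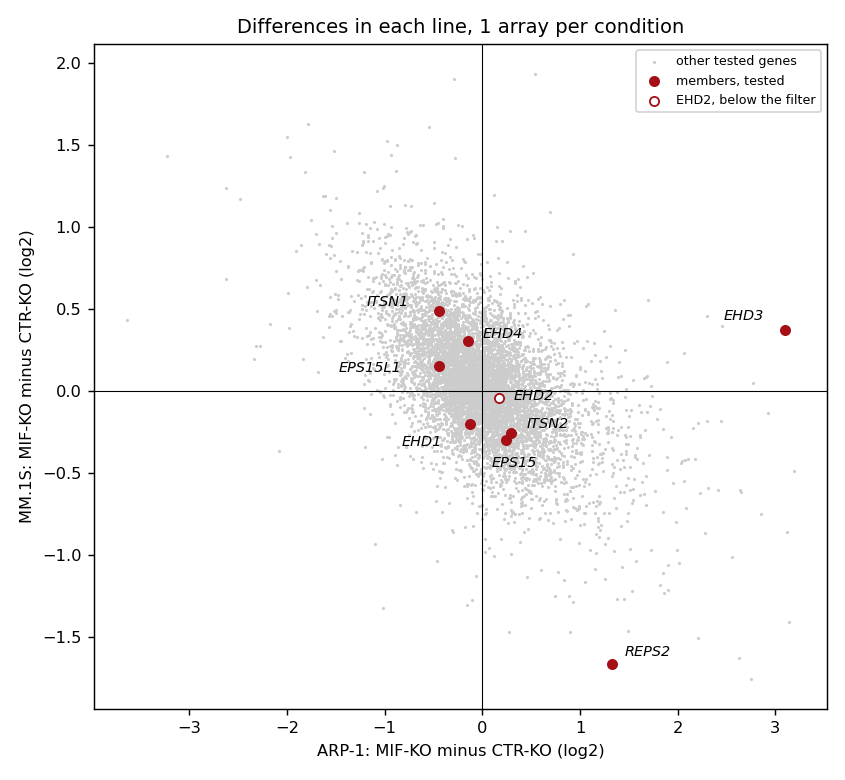
Log2 differences, MIF-KO minus CTR-KO, in ARP-1 (horizontal) and MM.1S (vertical) for all 7442 tested genes (grey) and the EH-domain genes (red; EHD2, below the filter, is open), 1 array per condition and line. EHD3 lies far to the right at 3.10 and 0.37, and REPS2 at the lower right at 1.33 and -1.66.

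Counts over the group rest on few genes. In ARP-1, 2 of 8 tested members, EHD3 and REPS2, were higher in MIF-KO by 1.5-fold or more, where 10.9% of all tested genes were, and 0 of 8 were that much lower (11.9% of all). In MM.1S, 1 of 8, REPS2, was at least 1.5-fold lower, against 2.89% of all, and 0 were higher (5.12%). Because these differences chose EHD3 and REPS2, nothing is read from the counts. The 6 other tested members lay between -0.44 and 0.29 in ARP-1 and between -0.30 and 0.49 in MM.1S. The median absolute difference of these 6 was 0.27 in ARP-1 and 0.28 in MM.1S, and that of all tested genes 0.29 and 0.20.

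Opposite signs in the lines were common in the group and on the arrays at large. REPS2, EPS15 and ITSN2 were higher in MIF-KO ARP-1 and lower in MIF-KO MM.1S, and EHD4, EPS15L1 and ITSN1 the reverse. That makes 6 of 8 tested members with opposite signs, against 67.6% of all tested genes, a share near the background. EHD3 was the 1 member higher in both lines, a pattern of 17.6% of all genes, and EHD1 the 1 member lower in both, a pattern of 14.8%. The sum of squares over the 4 arrays splits into condition, line and a remainder, in which the lines respond unequally. For REPS2, EHD4, ITSN1, ITSN2 and EPS15L1, from 64.1% (EPS15L1) to 83.4% (EHD4) lay in this unequal response. Its median share was 69.7% over the 8 tested members and 46.9% over all tested genes. It was also 69.7% over the 6 members without EHD3 and REPS2, the genes chosen on these same differences. All members were chosen with earlier results of these data known, and the gap to all genes was not tested. EHD3 had 61.3% along condition and 38.0% along the unequal response, and EPS15 had 57.8% along line. EHD1 had 79.1% along condition, of a total range of 0.24 on the log2 scale.

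**Figure D3:**
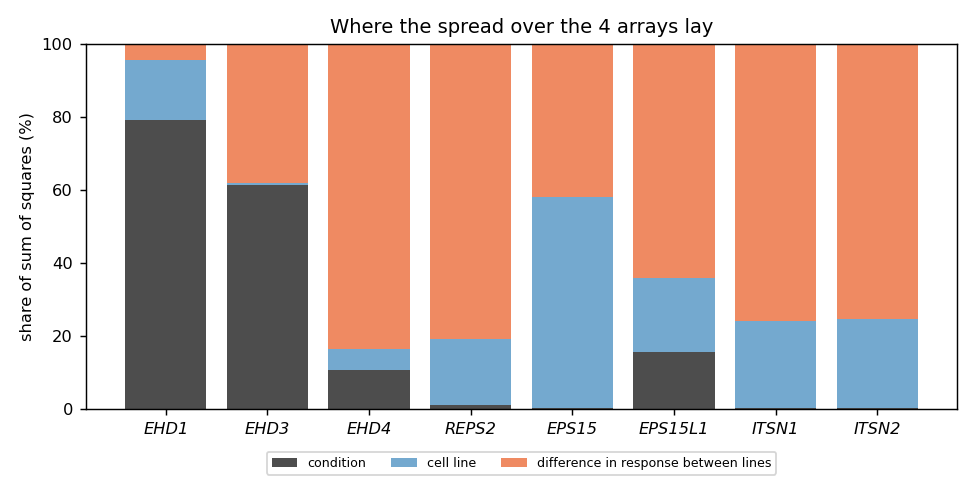
Share (%) of each gene's sum of squares over the 4 arrays, on the log2 scale, that fell to condition, to cell line and to unequal responses of the lines, for the 8 tested EH-domain genes. EHD1 and EHD3 are mostly condition, at 79.1% and 61.3%, and the unequal response holds 80.8% for REPS2 and 83.4% for EHD4, with a median of 46.9% over all tested genes.

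Over both lines the fitted MIF-KO minus CTR-KO difference was 1.73 for EHD3 (SE 0.66, n = 2 lines) and -0.17 for REPS2 (SE 0.70). The other 6 tested members lay between -0.16 (EHD1) and 0.08 (EHD4). The limma fit called 0 of 8 members and 0 of 7442 genes at an adjusted p below 0.05 (0% of all), with 29 genes at an unadjusted p below 0.05. EHD3 was the 1 member among the 29 (limma unadjusted p = 0.046). The differences that chose EHD3 enter this value, so it is no test of the gene. The error of this fit is only in part how far the lines disagree for a gene, with 1 residual degree of freedom. The rest is the limma trend over all tested genes, with 3.99 prior degrees of freedom. With the ARP-1 arrays exchanged as their descriptions have it, 401 genes passed (5.39% of all), REPS2 was the 1 member among them with a mean difference of -1.495, and EHD3 turned to -1.36. The differences that chose REPS2 enter this call, so it is no test of the gene. The exchange makes the unequal response of the lines into the condition difference, and 67.6% of all tested genes had opposite signs in the lines. With the exchange, MIF in ARP-1 would be 541 under the control hairpin and 1092 under its own hairpin. Which labels of ARP-1 are right was not tested. With MM.1S alone the 1.73 of EHD3 became 0.37, and with ARP-1 alone 3.10.

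The difference between the lines, averaged over the hairpins, was not used to choose the members. No member differed detectably by it: limma called 0 of 8 members and 0 of 7442 genes (0% of all), with 87 genes and 0 members at an unadjusted p below 0.05. The error of this difference contains the unequal response of the lines, and so the differences that chose EHD3 and REPS2. Its SE was 0.66 and 0.70 for these genes, against 0.25 (EHD1) to 0.34 (ITSN1) for the other tested members. For EHD3 and REPS2 the lack of a call is thus not free of the choice. REPS2 was higher in MM.1S by 0.71 on the log2 scale (SE 0.70, 95% interval -1.08 to 2.50, limma adjusted p = 0.99986), with the lines in opposite order under the 2 hairpins. EPS15 was higher in MM.1S under both hairpins, by a mean of 0.32 (SE 0.31, interval -0.47 to 1.11, the same limma adjusted p). ITSN1 differed by -0.26 (interval -1.12 to 0.60) and EHD3 by -0.19 (interval -1.88 to 1.51). These intervals are wide enough to hold 2-fold differences for all 4 genes. Array by array, 4 of 8 members were at least 1.5-fold apart between the lines under CTR-KO (EHD3, REPS2, EPS15 and ITSN1; 22.3% of all genes) and 2 of 8 under MIF-KO (EHD3 and REPS2; 12.6% of all). EHD3 and REPS2 were chosen for extreme values on these same arrays, so nothing is read from these counts, and with 16 added to every intensity EPS15 was 1.44-fold apart under CTR-KO. CTR-KO ARP-1 held the lowest value of EHD3, REPS2, EPS15 and ITSN2 and the highest of ITSN1. The share of all tested genes that were lowest on this array was not computed, and EHD3 and REPS2 were chosen for extreme values, so nothing is read from this. All differences between the lines over both hairpins and under CTR-KO contain CTR-KO ARP-1, and its part in them was not tested.

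The genes whose profile over the 4 arrays lay nearest to EHD3, by the Euclidean distance of log2 values centred on each gene's mean, were BMP4, MRFAP1L1, NCKAP1, KLHL32 and IRF2BP2. BMP4, a secreted growth factor, was nearest at a distance of 0.77, where the profile of EHD3 itself has a length of 2.21. Its intensity was 41.0 (CTR-KO) and 279.6 (MIF-KO) in ARP-1, and 150.2 (CTR-KO) and 155 (MIF-KO) in MM.1S. The 5 genes shared the low CTR-KO ARP-1 and the high MIF-KO ARP-1 value, and none had as wide a range as EHD3. NCKAP1, a subunit of the WAVE complex that drives branched actin, had 128, 429, 241 and 237 on the same arrays.

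Nearest to REPS2 were TLCD2, YPEL5, JUN, HAR1B and IL21R, at distances from 0.39 to 0.44 against a length of 1.66. JUN, the AP-1 transcription factor, had intensities of 168 (CTR-KO) and 469 (MIF-KO) in ARP-1, and 593 (CTR-KO) and 215 (MIF-KO) in MM.1S. IL21R, the interleukin-21 receptor of B cells and plasma cells, had 136, 251, 498 and 209. All these profiles peaked on CTR-KO MM.1S and were lowest on CTR-KO ARP-1, as REPS2 was. Likeness over 4 arrays is a description and carries no test.

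**Figure D4:**
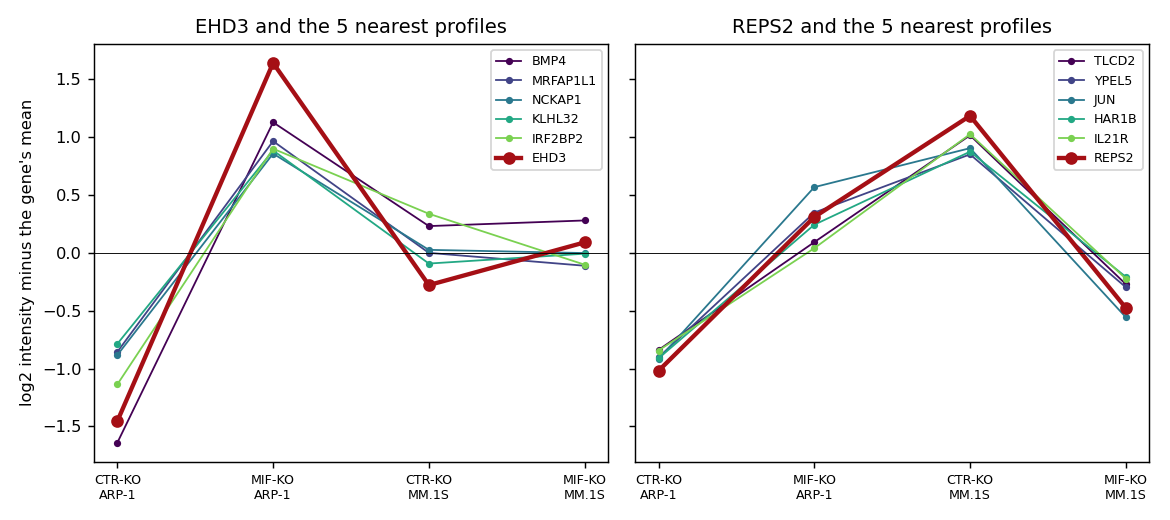
Log2 intensity minus each gene's mean on the 4 arrays for EHD3 (left) and REPS2 (right), in red, with the 5 tested genes of smallest distance; lines join the arrays only to guide the eye. EHD3 and its neighbours run from CTR-KO ARP-1, the lowest, to MIF-KO ARP-1, the highest, and REPS2 and its neighbours peak on CTR-KO MM.1S.

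Few partners and other genes of the endocytic pathway were 1.5-fold apart. Of 129 listed genes, 81 were named and 67 tested, and the limma fit called 0 of the 67 for condition and 0 for line. In ARP-1, 4 of 67 were higher in MIF-KO by 1.5-fold or more (5.97%, against 10.9% of all tested genes) and 1 was lower (1.49% against 11.9%). In MM.1S, 1 was higher (1.49% against 5.12%) and 0 were lower (2.89% of all). The median difference was 0.04 in ARP-1 and 0.06 in MM.1S, against -0.03 and 0.04 for all tested genes.

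Among the EHD partners, 13 genes were tested. PACSIN1, a membrane-bending partner of the EHD proteins, had intensities of 37.4 (CTR-KO) and 100.2 (MIF-KO) in ARP-1, and 46.0 (CTR-KO) and 48.9 (MIF-KO) in MM.1S. In ARP-1 it was 2.68-fold higher with the MIF hairpin (1.42 on the log2 scale) and in MM.1S it differed by 0.09, so the array of MIF-KO ARP-1 alone was high, as for EHD3. Its relatives went the other way in ARP-1 only: PACSIN2 differed by -0.37 and 0.42 and PACSIN3 by -0.31 and 0.42. EHBP1, an actin-binding partner of EHD1 and EHD2, differed by -0.38 and 0.35.

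Of the RAB GTPases of recycling and their effectors, 6 genes were tested. RAB11FIP4, an effector of RAB11, was higher on both MIF-KO arrays (0.41 for ARP-1 and 0.76 for MM.1S) and was the 1 pathway gene at least 1.5-fold apart in MM.1S. RAB11FIP3 of the same family was 1.72-fold lower in MIF-KO ARP-1 (-0.78), with -0.13 in MM.1S. RAB11FIP2 differed by 0.33 and -0.44 and the tethering factor EEA1 by -0.27 and 0.28. The Ral GTPase group had 7 tested genes and 0 at least 1.5-fold apart in either line. RGL1, an exchange factor of Ral, had the widest difference there, at 0.38 and -0.47, with RGL2 at -0.44 and -0.01, and the exocyst subunits EXOC8 at 0.37 and 0.05 and EXOC2 at 0.24 and 0.08.

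Around the coat, HIP1, which ties clathrin to actin, was 1.73-fold higher under MIF-KO in ARP-1 (0.79, with 0.23 in MM.1S), the 1 of 10 tested adaptors so far apart. The pioneer FCHO2 differed by 0.44 and 0.20, the epsin EPN2 by 0.32 and -0.32 and HIP1R by -0.07 and 0.39. Of the AP2 and clathrin list 2 of 12 genes were tested, the kinases AAK1 at -0.23 and 0.07 and GAK at -0.01 and -0.05. The coat subunits themselves are thus not described here. In the dynamin, scission and uncoating list, SNX9, which recruits dynamin, was the 1 of 11 at least 1.5-fold apart, with 83.6 (CTR-KO) and 192 (MIF-KO) in ARP-1, and 174 (CTR-KO) and 173 (MIF-KO) in MM.1S. CTR-KO ARP-1 alone was low for SNX9, and its differences were 1.20 and -0.01. INPP5F differed by 0.50 and -0.29, SYNJ2 by -0.09 and 0.54 and SH3GL1 by -0.27 and -0.28.

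Of the intersectin partners, 10 genes were tested. SOS2, a Ras exchange factor whose relative SOS1 binds intersectin, was 2.22-fold higher with the MIF hairpin in ARP-1. Its intensities were 231 (CTR-KO) and 511 (MIF-KO) in ARP-1, and 445 (CTR-KO) and 360.1 (MIF-KO) in MM.1S. SOS1 differed by 0.43 and -0.15, FNBP1L by -0.45 and -0.49 and FNBP1 by -0.01 and 0.48. In the ubiquitin-sorting list around EPS15, 0 of 8 tested genes were 1.5-fold apart in either line: UBQLN1 differed by -0.35 and 0.42, VPS28 by 0.37 and -0.22, STAM by -0.34 and 0.23 and UBQLN2 by 0.24 and -0.16. EGFR, the receptor after whose pathway EPS15 is named, was low on every array, between 7.91 and 8.90.

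**Figure D5:**
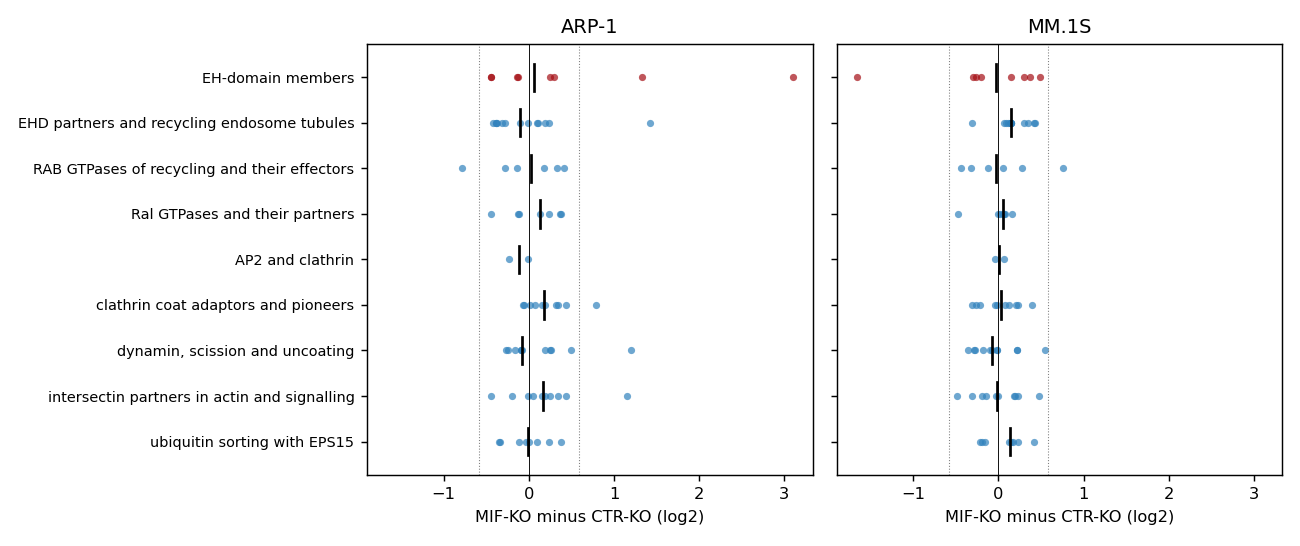
MIF-KO minus CTR-KO (log2) in ARP-1 (left) and MM.1S (right) for the 8 tested EH-domain genes (red) and the tested genes of 8 lists of the endocytic pathway (blue), 1 point per gene, with a black bar at each list's median and dotted lines at 1.5-fold. EHD3 at 3.10 in ARP-1 and REPS2 at -1.66 in MM.1S lie beyond all points of the pathway lists, as genes chosen for these differences.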

How the data were processed

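Per the labels, total RNA was labelled for whole-transcript arrays. The deposited values are linear probe set intensities for 53617 probe sets. The submitters' processing notes name RMA and limma. Their settings, the annotation and the build were not given in the sources used here. Log2 was taken with no pseudocount. A platform annotation named 16098 probe sets with 1 symbol (0 with several, 37519 unnamed), and all matched RefSeq by Entrez ID. For genes with several probe sets the one with the highest mean was used. Tested genes were those whose mean reached the median of gene means (log2 4.97, an intensity of 31.3).

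Limma (version 3.58.1, R 4.3.3) fitted cell line and condition with eBayes and a trend, and Benjamini-Hochberg adjustment ran over 7442 genes at a threshold of 0.05. Cell line is the pairing, from the labels. Across genes, r = -0.37 was found between the 2 arrays of a line after subtraction of the condition means. The arrays of a line thus tended to deviate in opposite directions, and this unequal response enters the error of both the condition and the line difference. The fit leaves 1 residual degree of freedom, and p-values measure only the spread between these arrays. That spread is taken in part from the gene and in part from the limma trend over all tested genes (3.99 prior degrees of freedom). It includes unequal responses of the lines and may be technical. Arrays carry no depth, and their number limits the precision. The code was tested on simulated data.

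Members and lists were chosen with earlier results of these data known. Named genes are all members, MIF, up to 4 genes per list by mean absolute difference over the lines (with genes below the filter named for EHD2 and EPS15 and chosen after their values were seen), and the 5 nearest tested profiles of EHD3 and REPS2, passing over microRNA and similar symbols. Alternatives covered the filter, probe sets, scaling, pseudocount, trend, line term, fold, the exchange of the ARP-1 arrays and each line left out.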

Additional observations from a re-analysis of the deposited data

Results flagged for a closer look

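The MIF-KO minus CTR-KO difference had opposite signs in the lines for 7 of the 9 named members. The difference in MM.1S minus that in ARP-1 was -2.99 on the log2 scale for REPS2, 0.93 for ITSN1, 0.59 for EPS15L1, -0.55 for EPS15, -0.55 for ITSN2, 0.45 for EHD4 and -0.22 for EHD2. With 1 array per line and condition these differences between the lines were not tested, and 67.6% of all tested genes also had opposite signs. For EHD2 all values lie below the filter.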

How the results depend on the processing

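The count of genes called for condition stayed at 0 under every alternative but the exchange of the ARP-1 arrays, which gave 401, and the count for line was 0 under each alternative that keeps the line term; called counts could not be fitted with a line left out. Without the line term (no replicate block) 0 genes were called as well. The members at least 1.5-fold apart, 2 in ARP-1 and 1 in MM.1S, kept their counts under all scalings, with 16 added and at 2-fold. Of 126 member values tested under alternatives, 121 kept their direction and their side of the threshold. Many of these could not change direction. Each member has 1 probe set, and the filter, probe set, trend and line term settings leave its fitted difference as it was. No member was called in the main fit, so a change of side could only be a new call. The count thus says little about how firm the values are. Of 16 values with a line left out, which have no test, 10 kept their direction. Exchanging the ARP-1 arrays reversed the mean condition difference of EHD3 (-1.36), EPS15L1 (0.30) and ITSN2 (-0.27), the last also with arrays shifted to the same median (-0.000296). With 1 line left out, the values ran from 0.37 to 3.10 for EHD3, from -0.14 to 0.30 for EHD4, from -1.66 to 1.33 for REPS2, from -0.30 to 0.25 for EPS15, from -0.44 to 0.15 for EPS15L1, from -0.44 to 0.49 for ITSN1 and from -0.26 to 0.29 for ITSN2. No scaling moved the median of all genes by over 0.1. Signal near background limits EHD2 and the lowest values of REPS2. The CTR-KO ARP-1 value of EHD3, 25.4, also lies below the filter of 31.3, and the 8.55-fold rests on it.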
